A study of Mus musculus with 99 samples.

Results

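The effect of exercise on gene expression in spinal cord was compared with its effect in leg muscle, in wild-type male C57BL/6 mice aged 18 months. All 18-month libraries with counts were used, 67 of the 97 in the series. They comprise 13 exercised and 10 sedentary libraries of whole spinal cord, 13 exercised and 10 sedentary libraries of gastrocnemius, and 12 exercised and 9 sedentary libraries of quadriceps. Gastrocnemius is the main calf muscle and quadriceps the large muscle of the front of the thigh. The labels name exercise as the treatment but not its kind, length or intensity. RNA came from PBS-perfused, flash-frozen tissue. For each gene the log2 difference between exercised and sedentary libraries was taken in cord, and the mean of the same difference in both muscles was subtracted from it. The result is called the cord-minus-muscle difference below: it is negative when exercised minus sedentary was lower in cord than in muscle. Each title carries a number such as 6.3 that recurs across tissues, and the number entered the fit as a block. Whether a number is 1 animal is not stated. There were 23 numbers, 13 exercised and 10 sedentary, and 21 had all 3 tissues.

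Muscle contracts during exercise and remodels with training: it is known to add capillaries, mitochondria and lipid-handling enzymes and to shift the myosin types of its fibres. The spinal cord houses the motor neurons that drive those fibres, together with the myelin, astrocytes and microglia around them, and does no contractile work. In bulk tissue, fewer cells of a type and less RNA per cell cannot be told apart.

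The libraries matched their labelled tissue. The motor neuron enzyme gene Chat lay between 21.4 and 37.4 TPM (transcript abundance scaled to length and library) in the cord libraries and at 0.047 TPM or less in the muscle libraries, and Acta1, the skeletal muscle actin gene, lay between 38.1 and 295 TPM in cord and at 33707 TPM or more in muscle. The sum of 8 muscle genes there had a lowest, median and highest value of 119, 328 and 934 TPM in exercised cords and of 113, 286 and 839.8 TPM in sedentary cords. Cord libraries 5.2 and 6.1, both sedentary, stood apart. Library 5.2 had 1.58% mitochondrial counts, and its deviation from the cord mean correlated with GC content at 0.72 across genes, and library 6.1 had red cell transcripts at 11727 CPM (counts scaled to library size). Correlations with gene length ran from -0.47 to 0.42 in exercised and from -0.52, in library 6.1, to 0.42 in sedentary cords. In gastrocnemius, 2 exercised libraries had correlations of -0.45 and -0.43 with gene length. The mitochondrial share was 12.4% ± 1.82 in exercised and 10.5% ± 0.767 in sedentary gastrocnemius (SD, n = 13 and 10; permutation p = 0.00114, adjusted p = 0.0103 over 9 tests of library measures, two-sided). In cord it was 4.59% ± 0.276 in exercised and 4.08% ± 0.898 in sedentary libraries (permutation p = 0.0237, adjusted p = 0.107). In no group did any pair of libraries agree within sampling noise: the lowest chi-square per gene was 3.23.

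**Figure D1:**
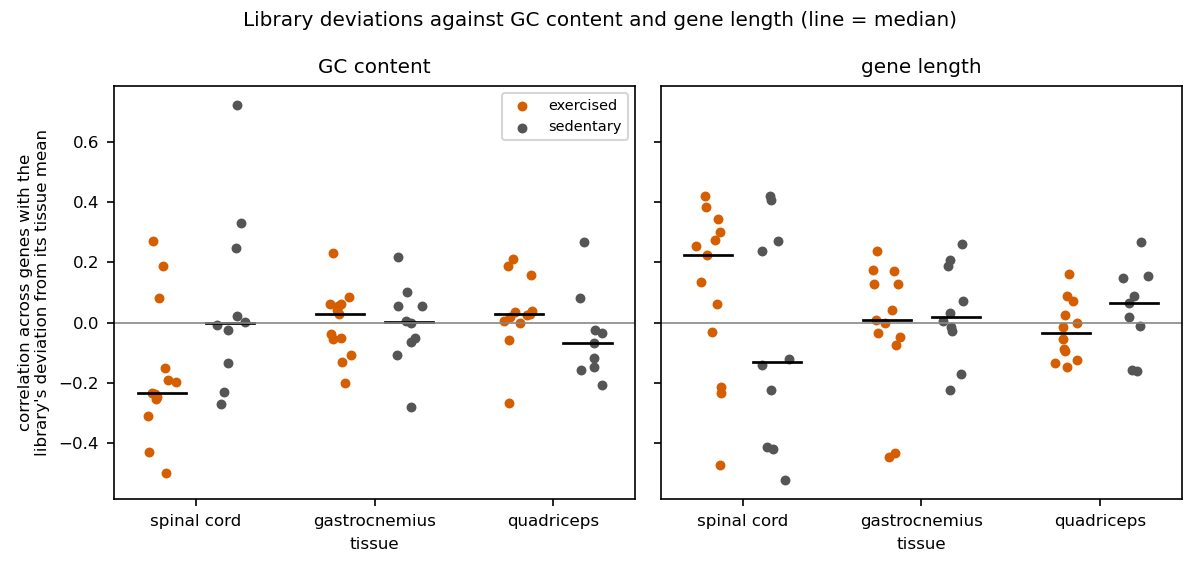
Correlation across genes between each library's deviation from its tissue mean and GC content (left) or gene length (right), exercised beside sedentary in each tissue, with lines at the median. Sedentary cord library 5.2 is the highest point for GC content (0.72), and the medians of exercised and sedentary cord libraries are -0.234 and -0.0025.

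In the fit as reported, many genes differed between cord and muscle in their exercise difference, by small amounts. Lipogenic, endothelial and respiratory chain genes were among those with a lower exercise difference in cord. Across the other settings run, the number of calls ranged from 0 to 2024. Of 13932 genes with sufficient counts in all 3 tissues, 756 had a higher and 768 a lower exercise difference in cord than in muscle at an adjusted p under 0.05 (edgeR quasi-likelihood F test, Benjamini-Hochberg; 5.43%, 5.51% and together 10.9% of genes tested). Of these, 28 of the higher and 105 of the lower ones reached 0.5 on the log2 scale, and the median over all genes was -0.01. Among called genes, the muscle difference was the larger in size for 974 of 1524, with a median size of 0.15 in muscle and 0.11 in cord. The median size over all genes was 0.07 in each. Genes called higher or lower in cord are called so for the exercise difference, not for the level of expression. Set against gastrocnemius alone, 284 genes were called (2.04%), and against quadriceps alone, 713 (5.12%); these share the cord libraries.

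Within cord itself, edgeR called 0 of 18660 genes (0%), with 1788 at an unadjusted p under 0.05, and DESeq2 called 0, with 1833. In gastrocnemius 118 genes rose (0.797%) and 52 fell (0.351%) of 14808 tested, and in quadriceps 95 rose (0.653%) and 30 fell (0.206%) of 14543.

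The number of calls rested on the treatment of libraries and of the block. Taking 1 difference per number, cord minus the mean of both muscles, and comparing 12 exercised with 9 sedentary numbers in limma left 92 higher and 159 lower (0.66%, 1.14% and together 1.8%). Without cord libraries 5.2 and 6.1, 173 were higher and 232 lower (1.24%, 1.67% and 2.91%), and with each library's slopes on gene length and GC content as covariates 39 were higher and 67 lower (0.28%, 0.481% and 0.761%). Genes called lower in cord were shorter and richer in GC than those called higher, with median lengths of 2343 and 6249.5 bases and median GC contents of 54.8 and 43.7%. The medians over all genes were 3526.5 bases and 49.9%. In cord the mean correlation of library deviation with GC content was -0.17 ± 0.224 in exercised and 0.07 ± 0.297 in sedentary libraries (SD, n = 13 and 10; permutation p = 0.0404, adjusted p = 0.243 over 6 tests chosen after the data were seen). Its part in the calls was not tested beyond these covariate fits. What these 3 settings did is given below for the main lists and for part of the genes.

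**Figure D2:**
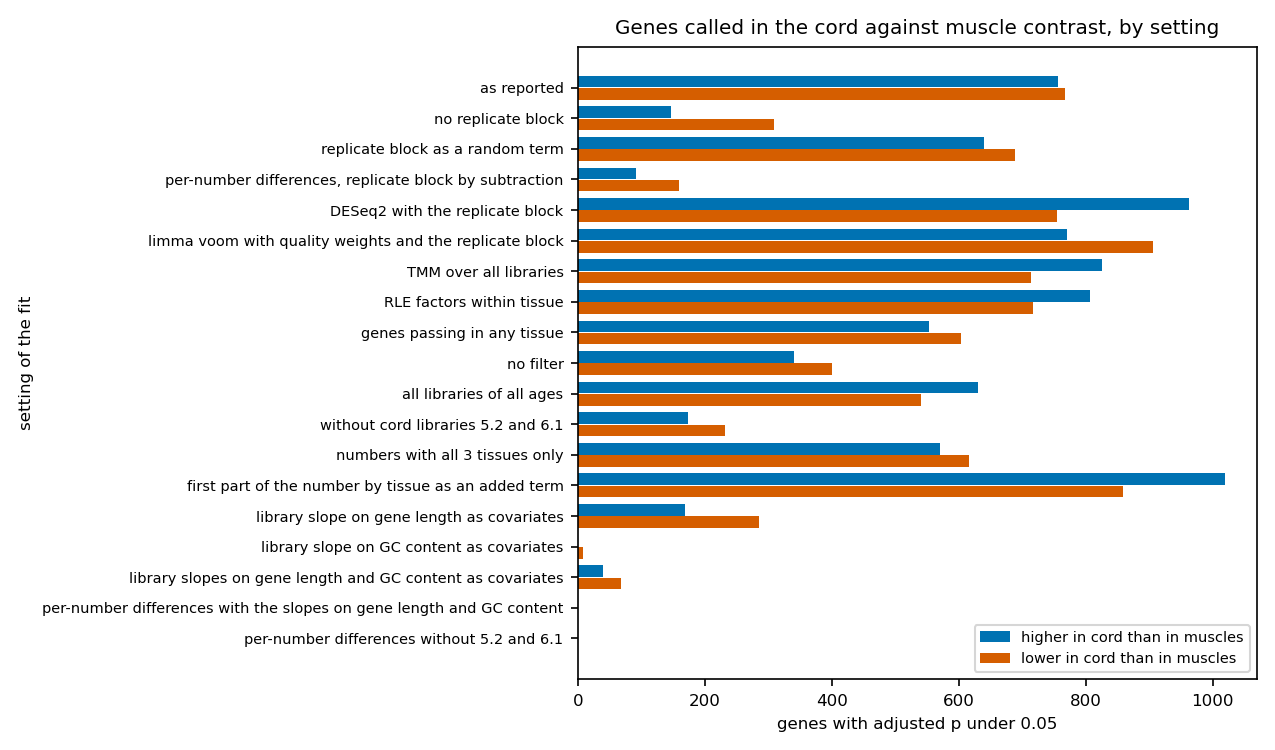
Number of genes whose exercise difference was called higher (blue) and lower (orange) in cord than in muscle at an adjusted p under 0.05, for the fit as reported and each other setting. The fit as reported has 756 and 768 calls, and the bottom pair of settings has 0.

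Genes of fatty acid synthesis were among those with a lower exercise difference in cord. They turn citrate into cytosolic acetyl-CoA and then into long-chain and unsaturated fatty acids. Of 18 lipogenesis genes tested, 10 were called lower in cord than in muscle (55.6%, against 5.51% of all genes) and 0 higher. All gene lists were chosen with earlier results of these data known. The shares called, here and below, are therefore descriptive and not a test of the lists. The list's median cord-minus-muscle difference was -0.43 against -0.01 over all genes. Within cord the list's median exercise difference was 0.00, in gastrocnemius 0.49 with 5 of 18 members called up, and in quadriceps 0.38 with 3 of 18 called up. The medians over all genes were -0.01, 0.01 and 0.00. Of all genes tested, 0.797% were called up in gastrocnemius and 0.653% in quadriceps. The called members were Acly, Fasn, Elovl6, Scd2, Thrsp, Dgat2, Agpat2, Fads1, Fads2 and Acss2. Members that did not pass include Acaca, the first committed enzyme (-0.51, adjusted p = 0.0541), Scd1, a fatty acid desaturase (-0.60, adjusted p = 0.103), and the regulators Srebf1 (-0.27, adjusted p = 0.0788) and Mlxipl (0.05, adjusted p = 0.702).

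Among called genes with a mean of at least 1 CPM in cord and in muscle, predicted and small RNA genes left out, the largest difference was that of Slc25a1 (Entrez 13358, chromosome 16, 17925223 to 17928219 in GRCm38), which encodes the carrier that exports citrate from mitochondria. It was not on the lipogenesis list. Its lowest, median and highest values were 76.4, 85.0 and 97.9 CPM in exercised cords, against 75.6, 91.5 and 118 CPM in sedentary cords. In gastrocnemius they were 5.34, 9.85 and 41.5 CPM with exercise, against 4.01, 5.25 and 10.35 CPM without. In quadriceps they were 16.9, 28.0 and 34.6 CPM with exercise, against 5.98, 13.7 and 23.7 CPM without. The cords overlapped throughout, while all 13 exercised gastrocnemius and all 12 exercised quadriceps libraries lay above their sedentary median. The cord-minus-muscle difference was -1.18 ± 0.231 (SE, edgeR adjusted p = 0.00233), made of -0.14 in cord, 1.301 in gastrocnemius and 0.79 in quadriceps. It passed per number (adjusted p = 0.012) and without cord libraries 5.2 and 6.1 (adjusted p = 0.0219), and did not pass with the length and GC slopes (adjusted p = 0.0975). In all 12 exercised numbers the signed log2 level in cord minus the mean of both muscles was below its sedentary median (exact permutation p = 5.1e-05, two-sided, not adjusted).

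Acly (Entrez 104112, chromosome 11, 100476353 to 100528000), which splits the exported citrate, had 451, 473 and 486 CPM in exercised cords and 408, 463 and 505 CPM in sedentary cords. In gastrocnemius it had 19.7, 37.6 and 208 CPM with exercise and 15.1, 19.1 and 29.6 CPM without, and in quadriceps 45.4, 75.1 and 131 CPM with exercise and 16.3, 35.5 and 82.0 CPM without. Of the exercised gastrocnemius libraries, 10 of 13 lay above every sedentary one. Its cord-minus-muscle difference was -1.02 ± 0.228 (edgeR adjusted p = 0.00501). Fasn (Entrez 14104, chromosome 11, 120805846 to 120824547), which builds palmitate, had 406, 428 and 497 CPM in exercised and 345, 443 and 568 CPM in sedentary cords. It had 34.2, 78.9 and 509.7 CPM in exercised and 26.9, 34.4 and 94.7 CPM in sedentary gastrocnemius. In quadriceps it had 170.3, 287 and 379 CPM with exercise and 46.8, 156 and 343 CPM without. The difference was -1.09 ± 0.303 (edgeR adjusted p = 0.0187). Elovl6, which lengthens palmitate, had a difference of -1.13 ± 0.301 (edgeR adjusted p = 0.0143), and Acss2, which makes acetyl-CoA from acetate, one of -0.41 ± 0.094 (edgeR adjusted p = 0.0061). Acss2 shares 395 exon bases with Gss and 335 with Acss2os on the opposite strand, and whether counting used strand is not given in the sources used here.

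A single exercised gastrocnemius library, 9.1, was the highest in that group for Slc25a1, Acly, Fasn, Elovl6 and Acss2. Without number 9.1 the cord-minus-muscle differences were -1.09, -0.91, -0.98, -0.96 and -0.38, and all 5 stayed called. The summed level of 14 adipocyte markers, which would mark fat in a muscle sample, had a lowest, median and highest value of 693, 772 and 984 CPM in exercised and 654, 741 and 812 CPM in sedentary gastrocnemius. In quadriceps the sums were 694, 916 and 1064 CPM with exercise and 699.8, 903 and 1167 CPM without. Of the 7 adipocyte markers tested in the contrast, 1 was called lower (14.3%, against 5.51% of all genes). It was Cidea, a lipid droplet gene (-0.79, edgeR adjusted p = 0.0331). The median cord-minus-muscle difference of the 7 was -0.24. Their median exercise difference was 0.01 in cord, 0.34 in gastrocnemius and 0.06 in quadriceps. In gastrocnemius 1 of 13 markers tested was called up, against 0.797% of all genes. The part of fat cells was not tested. Per number, 6 of the 18 lipogenesis genes were called lower, without cord libraries 5.2 and 6.1 2, and with the length and GC slopes 0. The list's median difference in these 3 settings was -0.43, -0.40 and -0.33.

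Because 5 of the 18 lipogenesis genes rose in gastrocnemius and none was called in cord, promoters of Slc25a1, Acly, Fasn and Acss2 are shown. Each is the stretch from 250 bases before to 50 after the RefSeq start in GRCm38.p6, and capitals mark the CCAAT box, on either strand, the letters bound by the factor NF-Y. Slc25a1 and 7 of the 10 called list members matched the table. Of these 8, 5 held CCAAT or its complement, which 37.9% of 27025 mouse promoters hold, and 5 held a GC box (GGGCGG, 35.9%). All promoters printed here held CCAAT or its complement. Elovl6, Agpat2 and Fads2, which are not printed, did not. The E-box CACGTG was found in 1 of 8 (7.24% of promoters) and the sterol response letters TCACNCCAC in 0 of 8 (1.22%). A match describes letters only. The windows run over chr16:17928170-17928469 (minus strand) for Slc25a1, chr11:100527951-100528250 (minus) for Acly, chr11:120824498-120824797 (minus) for Fasn and chr2:155517793-155518092 (plus) for Acss2.
Slc25a1: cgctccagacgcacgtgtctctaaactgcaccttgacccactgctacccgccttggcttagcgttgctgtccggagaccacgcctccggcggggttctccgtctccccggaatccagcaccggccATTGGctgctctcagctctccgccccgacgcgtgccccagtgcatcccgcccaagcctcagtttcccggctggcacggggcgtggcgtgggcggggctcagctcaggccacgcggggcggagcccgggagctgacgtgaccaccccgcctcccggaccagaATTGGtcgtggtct
Acly: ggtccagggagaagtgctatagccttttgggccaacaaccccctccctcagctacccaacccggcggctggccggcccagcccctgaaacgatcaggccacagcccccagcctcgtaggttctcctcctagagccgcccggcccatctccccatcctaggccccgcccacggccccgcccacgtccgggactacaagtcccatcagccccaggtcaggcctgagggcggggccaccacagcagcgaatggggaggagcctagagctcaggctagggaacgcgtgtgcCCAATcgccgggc
Fasn: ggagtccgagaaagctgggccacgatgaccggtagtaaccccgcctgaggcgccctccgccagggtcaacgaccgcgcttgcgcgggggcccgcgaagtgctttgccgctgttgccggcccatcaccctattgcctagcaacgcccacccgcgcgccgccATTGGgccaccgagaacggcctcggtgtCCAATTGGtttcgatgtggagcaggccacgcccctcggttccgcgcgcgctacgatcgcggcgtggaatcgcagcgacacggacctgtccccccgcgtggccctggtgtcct
Acss2: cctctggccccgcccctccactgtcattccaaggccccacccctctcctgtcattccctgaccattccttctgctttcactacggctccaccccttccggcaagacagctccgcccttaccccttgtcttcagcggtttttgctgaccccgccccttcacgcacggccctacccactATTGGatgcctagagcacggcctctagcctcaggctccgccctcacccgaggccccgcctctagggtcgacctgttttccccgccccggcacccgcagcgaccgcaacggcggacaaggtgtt

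**Figure D3:**
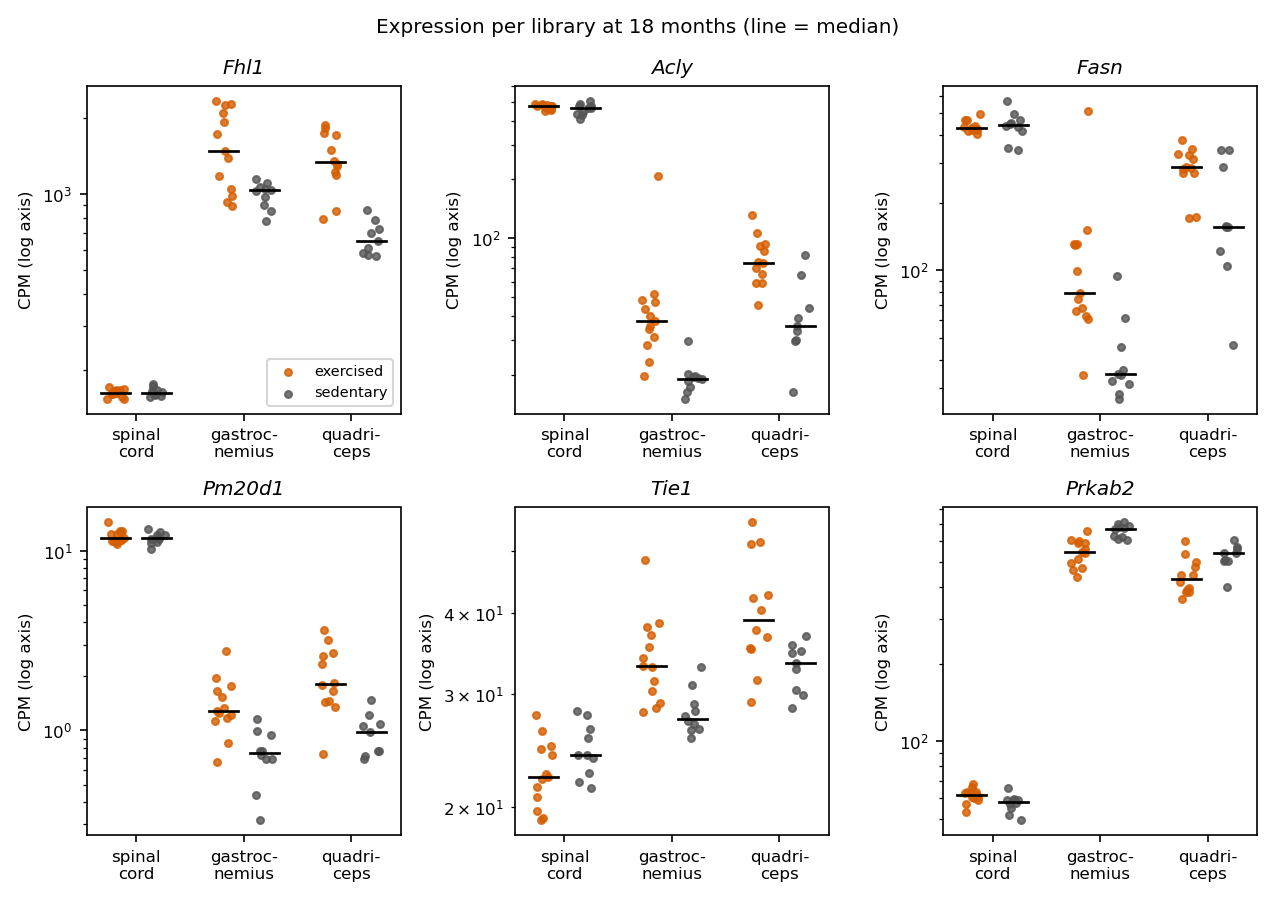
CPM (log axis) of 6 genes in each 18-month library, exercised beside sedentary in spinal cord, gastrocnemius and quadriceps, with lines at the median. Cord levels of Fhl1, Acly and Fasn overlap between exercised and sedentary mice, while 10 of 12 exercised quadriceps libraries lie above all sedentary ones for Fhl1.

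Fhl1 and Pm20d1 kept their calls in every alternative chosen at the start and in the 3 settings above. By per-number differences with the length and GC slopes, or without numbers 5.2 and 6.1, 0 genes were called, these included. Fhl1 (Entrez 14199, chromosome X, 56731787 to 56793346) encodes a LIM-domain protein of the sarcomere that responds to stretch. It had 154, 161 and 170.4 CPM in exercised cords, against 156, 162 and 176 CPM in sedentary cords. It had 899, 1476 and 2344 CPM in exercised gastrocnemius, against 782, 1034 and 1150.5 CPM in sedentary gastrocnemius, and 798, 1337 and 1876 CPM in exercised quadriceps, against 566, 649.7 and 861 CPM in sedentary quadriceps. The cord values barely varied, and 9 of 13 exercised gastrocnemius and 10 of 12 exercised quadriceps libraries lay above every sedentary one. The cord-minus-muscle difference was -0.80 ± 0.135 (edgeR adjusted p = 0.000766), with a loss in no fit that left out a number, and adjusted p = 0.0127 with the length and GC slopes. Pm20d1 (Entrez 212933, chromosome 1, 131797381 to 131821473), a secreted enzyme that joins fatty acids to amino acids, had 10.9, 11.8 and 14.3 CPM in exercised and 10.23, 11.7 and 13.2 CPM in sedentary cords. In gastrocnemius it had 0.668, 1.28 and 2.76 CPM with exercise and 0.317, 0.748 and 1.15 CPM without, and in quadriceps 0.736, 1.82 and 3.63 CPM with exercise and 0.693, 0.98 and 1.48 CPM without. Its difference was -0.93 ± 0.176 (edgeR adjusted p = 0.0017).

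E2f2, a cell cycle transcription factor also strongly expressed in red cell precursors, had a difference of -0.86 ± 0.177 (edgeR adjusted p = 0.00337). It likewise held in every alternative chosen at the start and in the 3 settings, and not where 0 genes were called. It had 1.76, 2.33 and 3.92 CPM in exercised cords and 2.04, 2.86 and 12.6 CPM in sedentary cords, the highest being library 6.1, the one with the red cell transcripts. The summed red cell markers had a lowest, median and highest value of 429, 638 and 2051 CPM in exercised and 368, 841 and 11727 CPM in sedentary cords. Without cord libraries 5.2 and 6.1, the adjusted p for E2f2 was 0.0172. In quadriceps it had 4.73, 8.27 and 10.96 CPM with exercise and 4.19, 5.21 and 9.48 CPM without. Crybb1, a crystallin gene, had a difference of -1.13 ± 0.224 (edgeR adjusted p = 0.00272) at levels of 0.358 to 3.71 CPM across all groups, and adjusted p = 0.0846 with the length and GC slopes. Cryab, which encodes a small heat shock protein of muscle, had one of -0.52 ± 0.105 (edgeR adjusted p = 0.00306; 0.0983 with the length and GC slopes), with 573, 913 and 1031 CPM in exercised and 556, 659 and 810 CPM in sedentary quadriceps.

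Endothelial genes were also among those with a lower exercise difference in cord. They mark the cells that line blood vessels. Of 20 angiogenesis and endothelium genes tested, 10 were called lower in cord than in muscle (50%, against 5.51% of all genes) and 0 higher, with a median of -0.29. The 10 were Vegfb, Pecam1, Cdh5, Tie1, Nos3, Eng, Emcn, Cldn5, Robo4 and Egfl7. The list's median exercise difference was -0.07 in cord, 0.25 in gastrocnemius and 0.17 in quadriceps. Within single tissues only Egfl7 in gastrocnemius was called, at 0.31 (adjusted p = 0.0394). Without cord libraries 5.2 and 6.1, 7 members were called lower, per number 3, and with the length and GC slopes 4. Tie1 and Robo4 passed under all 3. The vascular growth factor gene Vegfa (0.03, adjusted p = 0.884) and the receptors Kdr (-0.07, adjusted p = 0.695), Flt1 (-0.09, adjusted p = 0.583) and Tek (-0.08, adjusted p = 0.486) did not pass.

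Tie1 (Entrez 21846, chromosome 4, 118471191 to 118490061), an endothelial receptor tyrosine kinase, had 19.1, 22.3 and 27.8 CPM in exercised cords, against 21.4, 24.1 and 28.2 CPM in sedentary cords. In gastrocnemius it had 28.1, 33.1 and 48.4 CPM with exercise, against 25.6, 27.4 and 33.0 CPM without, and in quadriceps 29.1, 39.1 and 55.4 CPM with exercise, against 28.5, 33.4 and 36.9 CPM without. All 13 exercised gastrocnemius libraries lay above the sedentary median, 8 of them above every sedentary library. The cord-minus-muscle difference was -0.40 ± 0.0752 (edgeR adjusted p = 0.00157). The signed log2 level in cord minus muscle was below its sedentary median in 12 of 12 exercised numbers (exact permutation p = 0.000177, not adjusted). Median levels of Tie1 were lower in cord than in muscle, so the distance between them was wider with exercise. Robo4, a guidance receptor of vessels, had a difference of -0.39 ± 0.0826 (edgeR adjusted p = 0.00355). Pecam1, an adhesion molecule of endothelial junctions, had 31.0, 34.5 and 41.8 CPM in exercised and 35.5, 37.6 and 40.4 CPM in sedentary cords, and 8 of 13 exercised cords lay below every sedentary one. Its difference was -0.31 ± 0.0694 (edgeR adjusted p = 0.00497; 0.0505 per number). Cldn5, which seals vessels at the blood-brain barrier, had one of -0.63 ± 0.138 (edgeR adjusted p = 0.00465; 0.109 with the length and GC slopes).

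Among 24 collagen and matrix genes, 4 were called lower in cord than in muscle (16.7%, against 5.51% of all genes) and 0 higher, with a median of -0.24. Per number 1 was called, without cord libraries 5.2 and 6.1 3, and with the length and GC slopes 2. They were Col4a1 and Col4a2, the paired chains of basement membrane collagen that vessels and fibres share, Col15a1, and Sparc, a collagen-binding protein. Col4a2 (-0.40 ± 0.0876, edgeR adjusted p = 0.00424) had 75.0, 99.2 and 121 CPM in exercised and 92.5, 107 and 125 CPM in sedentary cords. In gastrocnemius it had 71.0, 96.1 and 165 CPM with exercise and 66.8, 83.6 and 95.4 CPM without. The list's median exercise difference was -0.03 in cord, 0.31 in gastrocnemius and -0.01 in quadriceps, and the fibrillar collagen genes Col1a1 and Col3a1 did not pass. Col4a1 (-0.41 ± 0.101) had an adjusted p of 0.00909 in edgeR and 0.0536 per number.

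Part of the nuclear genes of the respiratory chain had a lower exercise difference in cord than in muscle, by small amounts. Of 45 tested, 24 were called lower (53.3%, against 5.51% of all genes) and 0 higher, with a median of -0.28. The 24 ranged over complexes I to V, including Ndufv1, Sdhb, Uqcrq, Cyc1, Cox5b and Atp5b. The list's median exercise difference was -0.08 in cord, 0.17 in gastrocnemius and 0.21 in quadriceps. Within tissues, 0 of 45 were called in cord and in quadriceps and 1, Sdhb at 0.31, in gastrocnemius (adjusted p = 0.0394). Cox5b, a subunit of cytochrome c oxidase, had 163, 184 and 245 CPM in exercised and 160, 216 and 299.6 CPM in sedentary cords, 261, 302 and 421 CPM in exercised and 216, 263 and 296 CPM in sedentary gastrocnemius, and 239, 365 and 500.03 CPM in exercised and 256, 273 and 404 CPM in sedentary quadriceps. Its difference was -0.45 ± 0.103 (edgeR adjusted p = 0.00556). Exercised cords lay at lower medians and exercised muscles at higher ones, with overlap in each. Per number 5 of the 45 were called, without cord libraries 5.2 and 6.1 1, and with the length and GC slopes 0.

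The 13 mRNAs encoded in mitochondrial DNA gave no calls: 0 passed in edgeR, and the median cord-minus-muscle difference was 0.03. Their median exercise difference was 0.20 in cord, 0.19 in gastrocnemius and 0.25 in quadriceps, with 0 called in any tissue. The cord value includes sedentary library 5.2, which had 1.58% mitochondrial counts. Their sum in cord had a lowest, median and highest value of 40599, 46180 and 50840 CPM with exercise and 15750, 43723 and 45739 CPM without. The median cord-minus-muscle difference was -0.11 without cord libraries 5.2 and 6.1, -0.18 with the length and GC slopes and 0.13 per number. Of 17 citric acid cycle genes 4 were called lower (Idh2, Dlst, Mdh2 and Pdhb), and of 21 fatty acid oxidation genes 4 (Acadvl, Acads, Hadh and Eci1), with medians of -0.13 and -0.16. The shares were 23.5% and 19.0%, against 5.51% of all genes. Acadvl shares 1151 exon bases with Dvl2 on the opposite strand. Per number, 0 of these were called. Ppargc1a, the coactivator of mitochondrial genes, did not pass (0.19 ± 0.0924, edgeR adjusted p = 0.158). Among 18 regulators of mitochondrial biogenesis Prkaa2 (0.30) and Gabpa (0.22) were called higher and Esrra (-0.22) and Sirt3 (-0.27) lower (11.1% each way, against 5.43% and 5.51% of all genes). Of these 4, 0 were called per number and with the length and GC slopes, and 1, Prkaa2, without cord libraries 5.2 and 6.1.

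**Figure D4:**
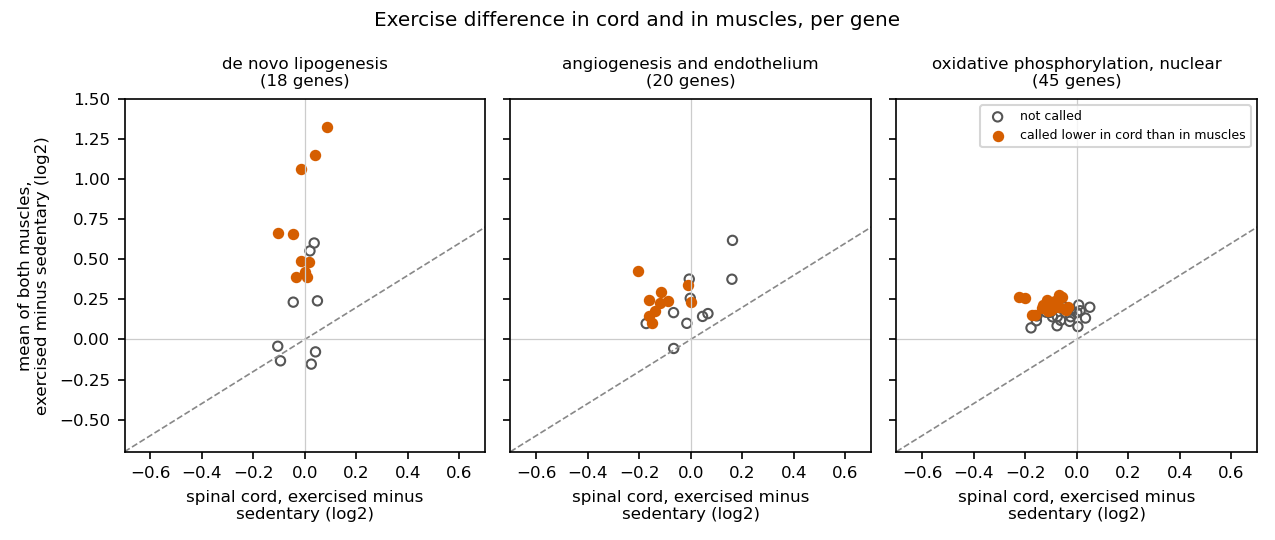
Exercise difference in cord (horizontal) against its mean in both muscles (vertical), log2, for each tested gene of 3 lists, with called genes filled and a dashed line where cord and muscle would be equal. Called genes lie above the line: lipogenesis genes spread upward near 0 in cord, and the respiratory chain genes cluster with small negative values in cord and positive ones in muscle.

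A few fibre-type genes gave large differences with wide errors, while the medians were -0.41 over 13 slow and 0.09 over 14 fast fibre genes. Their cord counts vary with the muscle RNA measured there, given above, and its part in the contrast was not tested. Myh1, the fast IIx myosin, rose in gastrocnemius (1.06, adjusted p = 0.00737) and quadriceps (0.84, adjusted p = 0.00474). It had 3361, 6527 and 12718 CPM in exercised against 2328, 3271 and 3627 CPM in sedentary gastrocnemius, and 4344, 9216 and 13289.7 CPM in exercised against 4229, 5121 and 5648 CPM in sedentary quadriceps. In cord it had 3.23, 11.9 and 45.8 CPM with exercise against 3.69, 11.4 and 59.3 CPM without. Its cord-minus-muscle difference was -1.05 ± 0.354 (edgeR adjusted p = 0.0462; 0.252 per number). Mb, the oxygen store myoglobin, rose by 0.84 in gastrocnemius and 0.90 in quadriceps (adjusted p = 0.00896 and 0.00036), with 1.84 to 21.8 CPM in exercised and 2.66 to 18.7 CPM in sedentary cords. Its difference was -0.97 ± 0.312 (adjusted p = 0.0385), and it shares 412 exon bases with Gm49540 on the opposite strand. Myh2, the IIa myosin, rose in quadriceps (0.83, adjusted p = 0.000158) and did not pass in the contrast (-0.53, adjusted p = 0.381). Myh4 (0.64, adjusted p = 0.118) and Myh7 (-0.40, adjusted p = 0.178) did not pass either. Of 13 slow fibre genes 3 were called lower (Mb, Myl3 and Casq2) and of 14 fast fibre genes 1, and per number 0 of both lists. The shares were 23.1% and 7.14%, against 5.51% of all genes.

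On the higher side, genes of nutrient sensing and of the clock were called in small numbers. Of 25 nutrient sensing genes 5 were called higher (Prkab2, Rictor, Tsc1, Slc38a2 and Tbc1d4) and 1 lower (Castor1), with a median of 0.06. The shares were 20% and 4%, against 5.43% and 5.51% of all genes. Per number 2 were called higher, without cord libraries 5.2 and 6.1 2, and with the length and GC slopes 1, Prkab2. Prkab2 (Entrez 108097, chromosome 3, 97658193 to 97673812) encodes the AMPK regulatory subunit most common in muscle. It had 53.1, 62.1 and 68.2 CPM in exercised cords, against 49.4, 58.2 and 65.8 CPM in sedentary cords. It had 437, 546 and 656 CPM in exercised gastrocnemius, against 608, 673 and 711 CPM in sedentary gastrocnemius, and 357, 429 and 601 CPM in exercised quadriceps, against 400.0, 538 and 609 CPM in sedentary quadriceps. All 13 exercised gastrocnemius libraries lay below the sedentary median, 11 of them below every sedentary library. The cord-minus-muscle difference was 0.39 ± 0.0719 (edgeR adjusted p = 0.00157). The signed log2 level in cord minus muscle was above its sedentary median in 11 of 12 exercised numbers (exact permutation p = 8.17e-05, not adjusted). Levels of Prkab2 were lower in cord than in muscle, so the distance between the medians was narrower with exercise. Rictor, a core subunit of the mTOR complex that acts on Akt, had a difference of 0.41 ± 0.0898 (edgeR adjusted p = 0.00492; 0.214 with the length and GC slopes). Prkaa2, the AMPK catalytic subunit of muscle, had one of 0.30 (adjusted p = 0.00424; 0.0695 per number).

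Of 19 clock genes 4 were called higher in cord than in muscle (Clock, Rora, Arntl and Nr1d2), with a median of 0.08. This is 21.1%, against 5.43% of all genes. Clock, the DNA-binding partner of Arntl, had 60.0, 67.6 and 73.1 CPM in exercised and 33.7, 63.7 and 68.1 CPM in sedentary cords. In gastrocnemius it had 27.9, 42.3 and 47.4 CPM with exercise and 36.8, 44.2 and 59.8 CPM without, and in quadriceps 23.2, 29.8 and 37.2 CPM with exercise and 25.9, 34.9 and 41.8 CPM without. Its difference was 0.38 ± 0.0873 (edgeR adjusted p = 0.00655), and that of Rora, a nuclear receptor of the clock, 0.39 ± 0.0878 (adjusted p = 0.00556). Both passed per number and without cord libraries 5.2 and 6.1, and neither passed with the length and GC slopes (adjusted p = 0.212 and 0.204). Nr1d2 lost its call without number 5.2, with a difference of 0.16 (adjusted p = 0.089), against 0.24 (adjusted p = 0.0412) with it.

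By the same limits, the 10 highest differences ran from 0.56 to 0.91 and belonged to Fgfbp1, Nnat, Mylk4, Rest, Lmbrd2, Flrt1, Pag1, Hectd2, Cpeb4 and Yod1. Mylk4, a muscle gene, had 0.527, 1.31 and 3.72 TPM in exercised and 0.609, 0.981 and 2.59 TPM in sedentary cords. Its lowest value in exercised gastrocnemius was 211.5 TPM. The part of muscle RNA in its cord values was not tested. Nnat, an imprinted gene of neurons and metabolic tissue, had 82.2, 93.9 and 124 CPM in exercised and 87.5, 108 and 126 CPM in sedentary cords. It had 0.902, 1.31 and 2.13 CPM in exercised and 0.811, 1.89 and 5.15 CPM in sedentary gastrocnemius, and 0.719, 1.31 and 2.15 CPM in exercised and 1.04, 2.46 and 4.11 CPM in sedentary quadriceps. Its difference was 0.71 ± 0.192 (edgeR adjusted p = 0.0152; 0.111 per number). Cpeb4, which regulates translation through the poly(A) tail, had 64.7, 85.5 and 92.5 CPM in exercised and 21.0, 74.4 and 90.4 CPM in sedentary cords, 94.6, 129 and 149.7 CPM in exercised and 115, 143 and 173 CPM in sedentary gastrocnemius, and 73.1, 91.0 and 119.7 CPM in exercised and 88.8, 104 and 136 CPM in sedentary quadriceps. Its difference was 0.56 ± 0.13 (edgeR adjusted p = 0.00655; 0.074 per number). Rest, a repressor of neuronal genes, had a difference of 0.69 ± 0.199 (edgeR adjusted p = 0.0218), Flrt1, a neuronal adhesion gene, 0.61 ± 0.155 (adjusted p = 0.0115) and Pag1, a membrane adaptor that holds Src kinases in check, 0.57 ± 0.149 (adjusted p = 0.013). Hectd2, a ubiquitin ligase gene, was the one of the 10 that passed per number (0.62, adjusted p = 0.0477), and it shares 1834 exon bases with Hectd2os on the opposite strand. None of the 10 passed with the length and GC slopes, where Flrt1 had the lowest adjusted p, 0.0889.

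**Figure D5:**
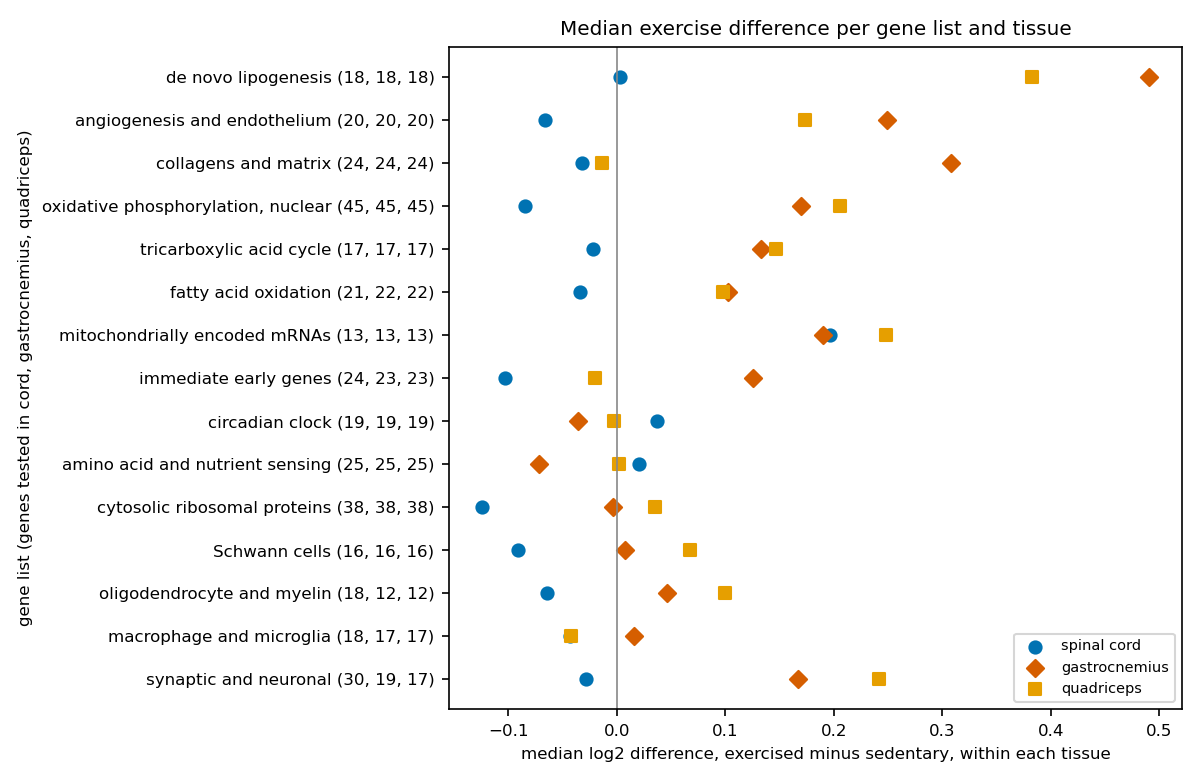
Median log2 difference between exercised and sedentary libraries in spinal cord (circles), gastrocnemius (diamonds) and quadriceps (squares) for 15 gene lists, with the number of genes tested per tissue. Lipogenesis stands at 0.00 in cord, 0.49 in gastrocnemius and 0.38 in quadriceps, and the mitochondrially encoded mRNAs lie at 0.19 to 0.25 in all 3. For the latter, the cord value includes sedentary library 5.2, which had 1.58% mitochondrial counts.

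Some genes that respond quickly to activity had a lower exercise difference in cord than in muscle. Of 23 immediate early genes, 4 were called lower (Junb, Jund, Ier2 and Klf2), 17.4% against 5.51% of all genes, and 0 higher, with a median of -0.18. Junb, a subunit of AP-1, had 8.85, 11.3 and 13.7 CPM in exercised and 10.13, 13.2 and 16.7 CPM in sedentary cords, 6.18, 7.46 and 14.9 CPM in exercised and 5.26, 6.69 and 8.69 CPM in sedentary gastrocnemius, and 4.65, 7.39 and 9.95 CPM in exercised and 4.71, 5.39 and 7.86 CPM in sedentary quadriceps. Its difference was -0.49 ± 0.124 (edgeR adjusted p = 0.0112), and 0 of the list were called per number and with the length and GC slopes, and 3 without cord libraries 5.2 and 6.1. Jund shares 877 of its 1668 exon bases with Gm11175 on the opposite strand. Fbxo32, a ubiquitin ligase of muscle wasting, had a difference of 0.47 ± 0.12 (edgeR adjusted p = 0.0117). It was 1 of 2 called higher among 21 glucocorticoid and atrophy genes, with 2 called lower (9.52% each way, against 5.43% and 5.51% of all genes). It did not pass per number (adjusted p = 0.078) or with the length and GC slopes (adjusted p = 0.143), where 0 of the list were called.

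Several lists that mark nervous tissue and immune cells gave no calls among members with sufficient counts in all 3 tissues. Those members were 6 of 14 motor neuron genes and 12 of 18 oligodendrocyte and myelin genes. Within cord alone, 0 of the 14 and 0 of the 18 were called. In the contrast 0 members were called of 12 oligodendrocyte and myelin genes, 16 Schwann cell genes, 17 macrophage and microglia genes, 18 disease-associated microglia genes, 6 motor neuron genes and 14 neurotrophic factors and receptors. The medians of these lists were -0.09, -0.12, -0.11, -0.06, -0.03 and 0.09. Over all genes 10.9% were called, which for lists this short is few genes. Of 12 astrocyte genes, Slc4a4, a bicarbonate transporter, was called higher (0.34) and Aldh1l1, a folate enzyme, lower (-0.46). Of 22 reactive astrocyte genes Fkbp5 was called higher (0.28) and S1pr3 lower (-0.32). The shares were 8.33% and 4.55% each way, near the 5.43% and 5.51% of all genes. None of these passed per number or with the length and GC slopes. Of 7 oligodendrocyte precursor genes 1, Cspg4, the NG2 proteoglycan, was called lower (14.3%, against 5.51% of all genes). Its difference was -0.40 (edgeR adjusted p = 0.0102). The adjusted p was 0.0457 per number, 0.0507 without cord libraries 5.2 and 6.1 and 0.0909 with the slopes. Bdnf, the neurotrophin most studied in exercise, had 6.59, 7.98 and 9.38 CPM in exercised and 5.99, 7.95 and 9.39 CPM in sedentary cords, with a contrast of -0.52 ± 0.194 (edgeR adjusted p = 0.069). Gfap, the astrocyte filament (-0.40, adjusted p = 0.314), Mbp, a major myelin protein (-0.18, adjusted p = 0.403), Snap25, a synaptic fusion protein (-0.48, adjusted p = 0.231), and Aif1, a microglial gene (0.02, adjusted p = 0.966), did not pass, nor did Pdk4 (0.48, adjusted p = 0.16) or Pfkfb3 (0.16, adjusted p = 0.516), which steer fuel use in muscle. Of 17 synaptic and neuronal genes 2 were called lower (11.8%, against 5.51% of all genes), Syn1 and Syp, and Syn1 lay between 0.0747 and 0.724 CPM in muscle. Of 15 MHC class I genes 3 were called lower, H2-D1, Tap2 and Tapbp (20%, against 5.51% of all genes). Of 38 ribosomal protein genes 3 were called lower, Rpl3, Rplp0 and Rps2 (7.89%, near the 5.51% of all genes). Per number and with the length and GC slopes 0 of both lists were called. Gfap and Snap25 had at most 1.13 and 2.46 TPM in muscle, and Chat was not tested in the contrast because its muscle counts were too low.

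Summed levels of markers of other cells overlapped between exercised and sedentary libraries. Red cell genes had a median exercise difference of -1.28 in cord (10 tested), -0.85 in gastrocnemius and -0.71 in quadriceps (8 tested in each muscle), with 0 called in any tissue and 0 in the contrast. Number 6.1 was high in all 3 tissues, at 11727, 1567 and 1321 CPM. Meningeal and dorsal root genes summed to 885, 1932 and 2869 CPM in exercised and 1448, 1988 and 2629 CPM in sedentary cords. Neutrophil and marrow genes summed to 42.0, 87.4 and 169 CPM in exercised and 39.98, 122 and 251 CPM in sedentary cords. Choroid plexus and ependymal genes summed to 64.5, 69.8 and 83.5 CPM in exercised and 68.0, 73.2 and 91.1 CPM in sedentary cords. Sums of T and NK cell genes reached at most 9.44 CPM and of B and plasma cell genes at most 15.6 CPM in any cord. Of 4 B cell genes tested, 1, Cd79b, was called lower in the contrast (25%, against 5.51% of all genes).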

How the data were processed

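RNA was sequenced from spinal cord, gastrocnemius and quadriceps with the TruSeq RNA v2 kit, per the labels' protocols. Alignment used STAR 2.5.2b and the build was GRCm38.p5, according to the labels and per the submitters' processing notes. No source used here names the counting program or its use of strand. The deposited count table gives raw whole-number counts for each Entrez gene, and the authors' deposited TPM table was used for levels in marker checks. All 67 libraries of 18-month mice were grouped by the labels; 2 labelled quadriceps samples were not analysed here. Totals of these libraries ran from 29.1M to 62.8M counts.

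Counts were tested with edgeR 4.0.16 in R 4.3.3 (quasi-likelihood F test), with TMM factors within each tissue, for 13932 of 35870 genes that passed filterByExpr (minimum count 10, minimum total 15) in all 3 tissues. The fit held number, tissue and tissue by exercise. Adjusted p-values are Benjamini-Hochberg over all genes tested, called under 0.05, and two-sided; standard errors (SE) come from the F statistic. CPM values are TMM-scaled, with the spread between libraries as given. Per-number differences used log2 CPM (prior count 2) in limma 3.58.1, with an exact permutation test over 293930 splits in place of the 100000 resamples first set, for named genes, whose p is not independent of the rule that named them. Where nothing says that libraries come from separate animals, p-values measure only the spread between libraries.

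The members and the 45 gene lists were chosen with earlier results of these data known, and of 808 list symbols 806 matched. Genes named are the 10 highest and 10 lowest called differences at a mean of at least 1 CPM in cord and in muscle, leaving out predicted and small RNA symbols. To these were added, for each list, at most 4 of its called members, ordered by p, and 12 fixed genes. The 5 smallest p, first set for lists without a call, were not used. Members of a list that were called or that mark a role are also named from the list. Alternatives were DESeq2 1.42.0, voom with quality weights, a random or no block, other scaling factors and filters, all ages, the first part of the number, leaving out each number or cord libraries 5.2 and 6.1, and, chosen after the data were seen, library slopes on gene length and GC content. GC content came from GENCODE M21 transcripts for 93.6% of genes tested. Positions are from GENCODE M21 on GRCm38. Promoters are RefSeq's on GRCm38.p6. The fits were tested on simulated data. Figures and permutation tests of library measures used scipy 1.17.1 with 100000 resamples, or exact enumeration in quadriceps. Calls on the lower side of the clock list are not reported here.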

Additional observations from a re-analysis of the deposited data

Results flagged for a closer look

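Single libraries lay far from the rest of their group in measures of the library. In cord, sedentary library 5.2 had 1.58% mitochondrial counts and 5.61% of counts in the 10 most abundant genes, and sedentary library 6.1 had 11727 CPM of red cell transcripts. The same number reached 1567 CPM in gastrocnemius and 1321 CPM in quadriceps. Sedentary quadriceps library 5.2 had 19.2% mitochondrial counts, 33.5% of counts in the 10 most abundant genes and a root mean square deviation from its tissue mean of 0.333 on the log2 scale.

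Among the 20 leading genes, 8 values were set apart in 60 groups of 9 or 10 samples, and among measures of the library 21 groups were tested. Chance flags about 1 in 20 groups. Only the sedentary groups had 9 or 10 samples, and the exercised groups, of 12 or 13, were not screened. Exercised gastrocnemius library 9.1, with Fasn at 509.7 CPM against 151 CPM in the next highest, was outside the screen. Sedentary gastrocnemius library 9.3 was high for Slc25a1 (10.35 CPM), Elovl6 (3.08 CPM), Fasn (94.7 CPM) and Acly (29.6 CPM). Sedentary cord library 4.3 was high for Mylk4 (6.45 CPM) and Myh1 (59.3 CPM), which are muscle genes, sedentary cord library 6.1 for E2f2 (12.6 CPM), and sedentary quadriceps library 5.2 was low for Rest (3.27 CPM).

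The exercise difference itself differed between tissues by test in 1524 genes for cord against both muscles, 284 for cord against gastrocnemius and 713 for cord against quadriceps (edgeR). Of the 20 leading genes, 9 also passed in limma on 1 difference per number, exercised minus sedentary. These were Hectd2 at 0.62, Slc25a1 at -1.14, Elovl6 at -1.03, Crybb1 at -0.99, Fasn at -1.06, Acly at -0.9999, Pm20d1 at -0.90, E2f2 at -0.80 and Fhl1 at -0.84, all on the log2 scale.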

How the results depend on the processing

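The count of genes called in cord against muscle, 1524 in the fit as reported, was 455 without the replicate block, 251 by per-number differences (the block by subtraction), 740 with no filter and 405 without cord libraries 5.2 and 6.1. With settings chosen after the data were seen it was 454 with library slopes on gene length, 7 with slopes on GC content, 106 with both, and 0 by per-number differences with both slopes or without 5.2 and 6.1, where 1862 and 2250 genes had an unadjusted p under 0.05. Leaving out each number gave 733 to 2024, with 733 without 6.1, 779 without 7.1, 946 without 5.2 and 1007 without 6.4. The per-number count of 251 ran from 26 without 6.2 to 745 without 5.4, and moved by over 1.5 times for every number left out but 4.1, 7.4 and 9.3. Against gastrocnemius alone, 284 became 3 without the block, 1 per number, 0 without 5.2 and 6.1 and 1117 with the first part of the number by tissue, and 46 to 785 leaving out each number (46 when 7.1 was left out, 60 for 6.1 and for 6.4, 66 for 5.2, 86 for 8.2, 94 for 7.3, 104 for 9.1, 116 for 6.2, 148 for the second number of first part 10, 159 for 6.3, 170 for 9.2, 614 for 5.4 and 785 for 5.3). Against quadriceps alone, 713 became 91 without the block, 38 per number and 111 without 5.2 and 6.1, and 164 to 1305 leaving out each number (164 when 6.1 was left out, 242 for 7.1, 293 for 9.2, 314 for 7.3, 323 for 6.2, 397 for 6.3, 418 for 8.3, 419 for 5.1, 449 for 6.4, 455 for the first number of first part 10 and 1305 for 5.4). Within gastrocnemius, 170 calls became 45 with no filter, 1370 with the first part of the number and 649 with DESeq2, and within quadriceps 125 became 323 with DESeq2. The cause was not tested. Scaling all tissues together gave 826 higher and 714 lower calls, and DESeq2's factors 807 and 717, with the median of all genes moved by 0.01. No named gene changed direction where it was called in the fit as reported or in the other setting. Changes of direction in genes called in neither were not counted. In all 36 alternatives chosen at the start, 161 genes were called. Of 23 number pairs between cord and gastrocnemius, 12 had a correlation of deviations over 0.1, and 2 correlated best with their own number; between cord and quadriceps these were 9 and 4 of 21, and between the muscles 19 and 16 of 21. The numbers are therefore not shown to pair cord with muscle. The fixed block assumes equal correlation among tissues, while the scaled variance of cord minus muscles was 1.18 times that of gastrocnemius minus quadriceps in the median gene. Whether depth limited the calls of genes at few CPM in muscle was not tested.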
